A study of Mus musculus with 6 samples.

Results

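Dendritic cells (DCs) are antigen-presenting cells that share surface proteins with macrophages, so their transcripts can appear in sorted tumour macrophages. The values below are those of 10 genes used to identify mouse DCs, taken by symbol from 24391 gene rows of a count table and 23284 gene rows of an FPKM table, and all 10 were found in both. Conventional type 1 DCs (cDC1) depend on the transcription factors BATF3 and IRF8 and cross-present antigen from dead cells to CD8 T cells. Conventional type 2 DCs (cDC2) present mainly to CD4 T cells, plasmacytoid DCs (pDCs) make type I interferon, and maturing DCs remodel their actin skeleton as they leave for lymph nodes. In tumours cDC1 are known for recruiting and priming cytotoxic T cells, and natural killer cells draw them in with the chemokines XCL1 and CCL5.

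The series compared mice lacking the chemokine gene Ccl5 (genotype CCL5-/-) with WT mice, all of strain BALB/C, in RNA of macrophages sorted from colorectal tumours. The gate high for CD11b and low for F4/80 (F4/80low) had 2 CCL5-/- and 2 WT libraries, and the gate low for CD11b and high for F4/80 (F4/80hi) had 1 library labelled CCL5-/- and 1 labelled WT. The labels give no age of the mice, and they do not say whether a library came from 1 mouse or from pooled mice, so p-values measure the spread between libraries, which may be technical.

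The libraries did not stand as 6 independent samples. Total counts were 10494542 and 19073767 in CCL5-/- replicates 1 and 2, against 9280635 and 22411342 in WT replicates 1 and 2. The ribosomal RNA precursor Rn45s took 50.03% and 58.4% of counts in the replicate 1 libraries of CCL5-/- and WT, but 1.38% and 0.844% in their replicates 2. The first principal component, with 76.0% of the variance, separated the replicate numbers. The FPKM ratio of the libraries labelled F4/80hi predicted how reads split between the F4/80low replicate 1 libraries more closely than independent reads allow, with a median chi-square of 0.335 over 6677 genes where independent reads give 0.455. Each went with the opposite genotype: the F4/80hi library labelled CCL5-/- with WT replicate 1, and the F4/80hi library labelled WT with CCL5-/- replicate 1. The other 11 ordered pairs gave 3.57 to 8.90. Differing by less than sampling noise, these were counted as the same libraries, so that 4 are left in all. Comparisons within F4/80low are also given within each replicate number, called pair 1 and pair 2, a name that implies no shared animal or batch. The CD11b gene Itgam stood at 580 and 144 CPM (reads scaled by library size with TMM factors) in CCL5-/- replicates 1 and 2, against 598 and 180 CPM in WT. The F4/80 gene Adgre1 stood at 53.7 and 35.3 CPM in CCL5-/- and 35.6 and 51.8 CPM in WT. The targeted gene Ccl5 had 35 and 82 reads in the CCL5-/- libraries, against 255 and 3976 in the WT libraries. Its log2 change was -4.64 (SE 0.69), with an adjusted p of 1.0 in edgeR and of 2.42e-08 in DESeq2.

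Most of the 10 genes were near the floor of detection in F4/80low. Over the 4 libraries, 8 of them lay between 0.331 and 7.72 CPM, while Irf8 and Fscn1 lay between 72.8 and 161 CPM. Irf8 is also a factor of monocytes and macrophages, and fascin, the actin-bundling protein encoded by Fscn1, is also made by fibroblasts, endothelial cells and tumour cells. Per kilobase of exon (GENCODE M21), Fscn1 was highest and Irf8 next in each of the 4 libraries, Fscn1 at 24.2 and 48.0 CPM per kb in CCL5-/- and at 25.1 and 30.9 in WT. Cd209a came next in every library, at 2.64 and 1.58 CPM per kb in CCL5-/- and at 1.52 and 1.23 in WT. Clec9a, the cDC1 receptor for actin exposed on dead cells, was at 0.212 and 0.1004 CPM per kb in CCL5-/- and at 0.104 and 0.499 in WT, the lowest of the 10 in every library but WT replicate 2. In FPKM, a scale that also divides by length, the top of the order was turned in the libraries labelled F4/80hi, with Irf8 at 33.4 FPKM (labelled CCL5-/-) and 40.1 FPKM (labelled WT), above Fscn1 at 27.2 and 27.5 FPKM. The lengths behind FPKM are not given, and these libraries are counted as those of F4/80low replicate 1. The order is therefore not compared between gates.

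**Figure D1:**
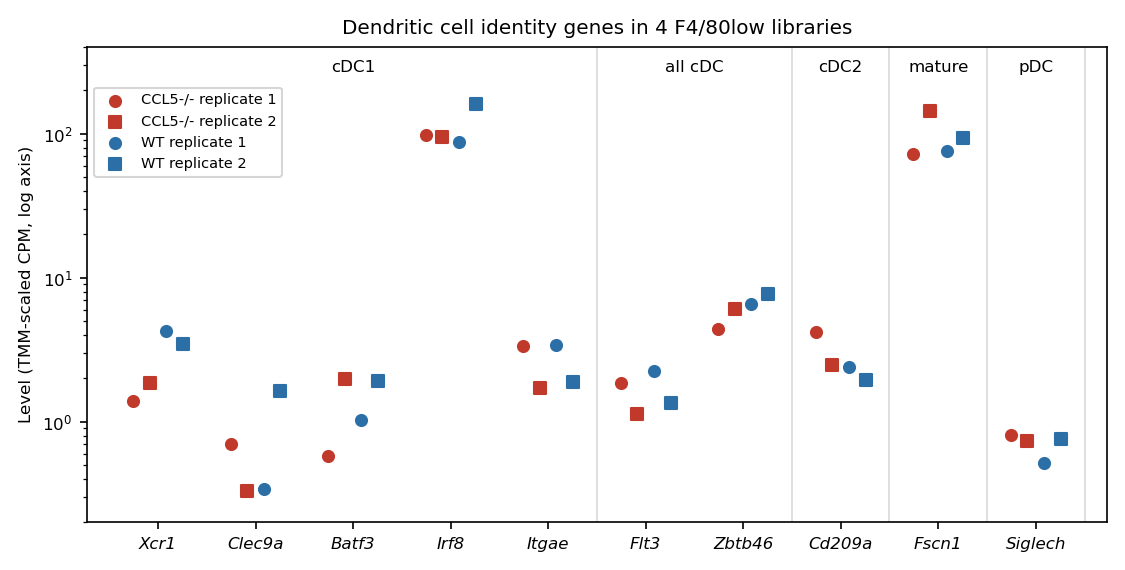
TMM-scaled CPM on a log axis of the 10 dendritic cell identity genes in each F4/80low library (red CCL5-/-, blue WT; circles replicate 1, squares replicate 2), grouped by the DC subset they mark. Irf8 and Fscn1 lie between 72.8 and 161 CPM, and the other 8 genes lie below 8 CPM.

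The first question was whether loss of Ccl5 goes with a different level of these genes in F4/80low. None passed. Of 12710 genes tested with edgeR's quasi-likelihood test, 0 (0%) had an adjusted p under 0.05 and 41 (0.323%) an unadjusted p under 0.05. In DESeq2 1 gene passed, which was Ccl5, and in limma-voom 0 did. Of the 10 identity genes 9 passed the filter on low counts and 0 of these were called by any of the 3 tools, with 0 at an unadjusted edgeR p under 0.05. In simulated counts with the same split by replicate number this fit called none of the genes given a known change, so the absence of calls does not show that levels were alike. The CCL5-/- and WT libraries did not overlap for 3 genes, as for 16.6% of all genes tested. Xcr1 and Zbtb46 were lower in both CCL5-/- libraries, as were 8.24% of all tested genes, and Cd209a was higher in both, as were 8.36%. In pair 1 and pair 2 alike CCL5-/- was below WT for 4 of the 9 (Xcr1, Flt3, Zbtb46 and Itgae), beside 26.5% of all genes, and 5 of the 9 had the same sign in both pairs, beside 51.3%. In bulk RNA fewer cells of a type and less RNA per cell cannot be told apart.

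Xcr1 had the smallest p of the 10. It lies at chr9:123852315-123862029 on the minus strand of GRCm38 and encodes the receptor for XCL1, a surface mark of cDC1. Xcr1 had 12 and 51 reads in CCL5-/- replicates 1 and 2, against 25 and 106 in WT replicates 1 and 2. That was 1.39 and 1.87 CPM in CCL5-/- and 4.29 and 3.48 CPM in WT, so that each CCL5-/- library lay below each WT library. The log2 change was -1.23 (SE 0.53, unadjusted p = 0.062, edgeR adjusted p = 1.0, n = 2 per group). CCL5-/- had 0.325 of the WT level in pair 1 (95% interval 0.149 to 0.671) and 0.538 in pair 2 (0.377 to 0.758). These intervals are exact (Clopper-Pearson on the split of reads) and, like those below, cover counting error only. Leaving out 1 library at a time kept the log2 change between -1.47 and -0.996.

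Clec9a, at chr6:129408862-129424763, did not follow Xcr1 in every library. It had 6 and 9 reads in CCL5-/- replicates 1 and 2, against 2 and 50 in WT, and did not pass the filter. The ratio of CCL5-/- to WT was 0.201 in pair 2 (interval 0.0869 to 0.413), and in pair 1, with 6 reads against 2, it was 2.03 (0.363 to 20.6). The groups overlapped. With no filter the edgeR log2 change was -1.11 (SE 1.11, adjusted p = 1.0). The annotation places Clec1b and Gm43914 over part of the Clec9a locus, introns included. Whether exons overlap was not examined, and the sources used here do not say whether reads were counted by strand. It is therefore not known whether reads are shared. The spans of Irf8, Flt3, Zbtb46 and Itgae also overlap annotated genes.

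The promoters of these cDC1 receptors are shown beside that of Cd209a, the cDC2 gene, because Xcr1 and Cd209a stood on opposite sides in CCL5-/- and WT. They run 5′ to 3′ in the direction of the gene, from 250 bases before to 50 after the start (RefSeq, GRCm38.p6). Capitals mark 3 motifs on either strand: GGAA, the core bound by PU.1 and other ETS factors, GGAANNGAA, the core of a joint PU.1 and IRF site, and GAAANNGAA, the core of a paired IRF site. GGAANNGAA contains GGAA, and GAAANNGAA can overlap it. The windows are chr9:123861980-123862279 on the minus strand for Xcr1, chr6:129408612-129408911 on the plus strand for Clec9a and chr8:3748935-3749234 on the minus strand for Cd209a.
Xcr1: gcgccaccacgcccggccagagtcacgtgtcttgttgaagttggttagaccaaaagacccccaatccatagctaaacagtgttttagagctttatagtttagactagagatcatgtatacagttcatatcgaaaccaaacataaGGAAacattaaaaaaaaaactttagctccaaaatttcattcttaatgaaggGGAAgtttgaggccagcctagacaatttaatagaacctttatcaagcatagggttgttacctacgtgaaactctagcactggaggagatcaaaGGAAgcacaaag
Clec9a: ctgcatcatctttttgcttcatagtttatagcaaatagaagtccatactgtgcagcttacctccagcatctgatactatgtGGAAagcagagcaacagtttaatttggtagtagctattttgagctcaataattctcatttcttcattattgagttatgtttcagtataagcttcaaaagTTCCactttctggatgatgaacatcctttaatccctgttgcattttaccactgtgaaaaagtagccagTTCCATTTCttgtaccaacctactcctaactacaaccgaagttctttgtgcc
Cd209a: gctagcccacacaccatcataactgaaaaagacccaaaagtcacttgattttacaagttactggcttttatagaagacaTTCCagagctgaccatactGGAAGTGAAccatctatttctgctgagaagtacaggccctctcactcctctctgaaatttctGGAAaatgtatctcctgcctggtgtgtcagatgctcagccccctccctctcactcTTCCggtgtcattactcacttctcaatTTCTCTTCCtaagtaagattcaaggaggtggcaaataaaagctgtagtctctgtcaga

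RefSeq promoter windows matched 9 of the 10 genes, 10 windows in all. GGAANNGAA was in 1 of them, that of Cd209a, which holds it at 2 places, and in 8.24% of 32851 promoter windows of the same length. GAAANNGAA was in 1, that of Clec9a, and in 8.56% of all. GGAA was in 9 of the 10 windows and in 95.98% of all. TGANTCA, the site of AP-1 and BATF dimers, was in 1, that of Zbtb46, and in 7.81% of all. The Zbtb46 window, chr2:181424339-181424638, lies inside the gene as GENCODE M21 places it (chr2:181387762-181459426, minus strand), not at its outer start. A match is a description of letters and not a bound site, and both IRF motifs were shortened by 1 base after a first search.

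The cDC1 factors were not uniform. Batf3, whose loss removes cDC1 in mice, had 5 and 54 reads in CCL5-/- replicates 1 and 2, against 6 and 58 in WT. Its level was 0.581 and 1.98 CPM in CCL5-/- and 1.03 and 1.91 CPM in WT, and the groups overlapped. The log2 change was -0.19 (SE 0.82), and it was 0.43 without CCL5-/- replicate 1 and 0.36 without WT replicate 2. Irf8 was at 97.6 and 94.8 CPM in CCL5-/-, against 87.8 and 161 CPM in WT. WT replicate 2 stood above the other 3 libraries, which lay between 87.8 and 97.6 CPM. The ratio of CCL5-/- to WT was 1.11 (interval 0.995 to 1.24) in pair 1 and 0.588 (0.560 to 0.617) in pair 2. Irf8 had a log2 change of -0.37 (SE 0.45) over all 4 libraries, and 0.13 without WT replicate 2.

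Itgae, listed here with the cDC1 genes, encodes CD103, an integrin chain of gut DCs that is also carried by T cells lodged in epithelium. It had 29 and 47 reads in CCL5-/- replicates 1 and 2, against 20 and 57 in WT. At 3.37 and 1.73 CPM in CCL5-/- and 3.44 and 1.87 CPM in WT, its level went with the replicate number. The log2 change was -0.048 (SE 0.65), and it turned to 0.062 when library totals without Rn45s replaced TMM, to 0.38 without CCL5-/- replicate 2 and to 0.43 without WT replicate 1. The ratios were 0.981 (interval 0.536 to 1.83) and 0.921 (0.612 to 1.38) in pairs 1 and 2. Of 13 T cell markers 10 were in the table and all 10 were detected, with summed levels of 36.7 and 30.7 CPM in CCL5-/- and 28.001 and 62.7 CPM in WT. Their part in the Itgae values was not tested.

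Flt3 and Zbtb46 mark all conventional DCs, and the part of other cells in their values was not tested. Flt3, the receptor for the DC growth factor FLT3L, had 16 and 31 reads in CCL5-/- replicates 1 and 2, against 13 and 41 in WT, or 1.86 and 1.14 CPM against 2.23 and 1.35 CPM. The groups overlapped, and the log2 change was -0.24 (SE 0.67), with 0.09 without CCL5-/- replicate 2 and 0.14 without WT replicate 1. Zbtb46, a zinc finger factor that separates conventional DCs from macrophages, was at 4.42 and 6.06 CPM in CCL5-/-, against 6.53 and 7.72 CPM in WT, on 38 and 165 reads against 38 and 235. Each CCL5-/- library was below each WT library, with 0.677 of the WT level in pair 1 (interval 0.420 to 1.09) and 0.784 in pair 2 (0.639 to 0.961). The log2 change of -0.44 (SE 0.43, unadjusted p = 0.34) did not pass in edgeR, and was -0.19 to -0.70 when 1 library was left out. It was nearest 0 without CCL5-/- replicate 1 and farthest from 0 without CCL5-/- replicate 2.

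Cd209a stood on the other side. It lies at chr8:3743397-3748984 on the minus strand and encodes a lectin of the DC-SIGN family found on cDC2 and on DCs derived from monocytes. Cd209a had 36 and 68 reads in CCL5-/- replicates 1 and 2, against 14 and 59 in WT, or 4.18 and 2.50 CPM in CCL5-/- and 2.40 and 1.94 CPM in WT. Both CCL5-/- libraries were above both WT libraries, although CCL5-/- replicate 2 and WT replicate 1 differed by little. The log2 change was 0.62 (SE 0.56, unadjusted p = 0.31, edgeR adjusted p = 1.0). The ratio was 1.74 (interval 0.916 to 3.49) in pair 1 and 1.29 (0.895 to 1.86) in pair 2, so neither pair alone excluded equal levels. Leaving out 1 library gave 0.26 to 0.96. It was lowest without CCL5-/- replicate 1.

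Fscn1 and Siglech had no shared direction over the pairs. Fscn1 had 626 and 3940 reads in CCL5-/- replicates 1 and 2, against 440 and 2832 in WT, or 72.8 and 145 CPM against 75.6 and 93.1 CPM. CCL5-/- replicate 2 was the highest library, and the groups overlapped. The ratio was 0.963 (interval 0.851 to 1.09) in pair 1 and 1.55 (1.48 to 1.63) in pair 2. The log2 change was 0.37 (SE 0.47), and -0.22 without CCL5-/- replicate 2. Summed fibroblast and endothelial markers, all 11 detected, were at 718 and 1055 CPM in CCL5-/- and at 818 and 903 CPM in WT, highest in the same library as Fscn1, and the 8 epithelial and tumour markers summed to 27.9 and 32.2 CPM in CCL5-/- and to 33.7 and 17.8 CPM in WT. Their part in the Fscn1 values was not tested. Siglech, a sialic acid-binding lectin of pDCs, had 7 and 20 reads in CCL5-/- and 3 and 23 in WT, or 0.814 and 0.734 CPM against 0.515 and 0.756 CPM. Its log2 change was 0.22 (SE 0.79), and the intervals of its ratios, 0.360 to 9.46 and 0.506 to 1.85 in pairs 1 and 2, hold both higher and lower levels, so a difference was not detectable at this depth.

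**Figure D2:**
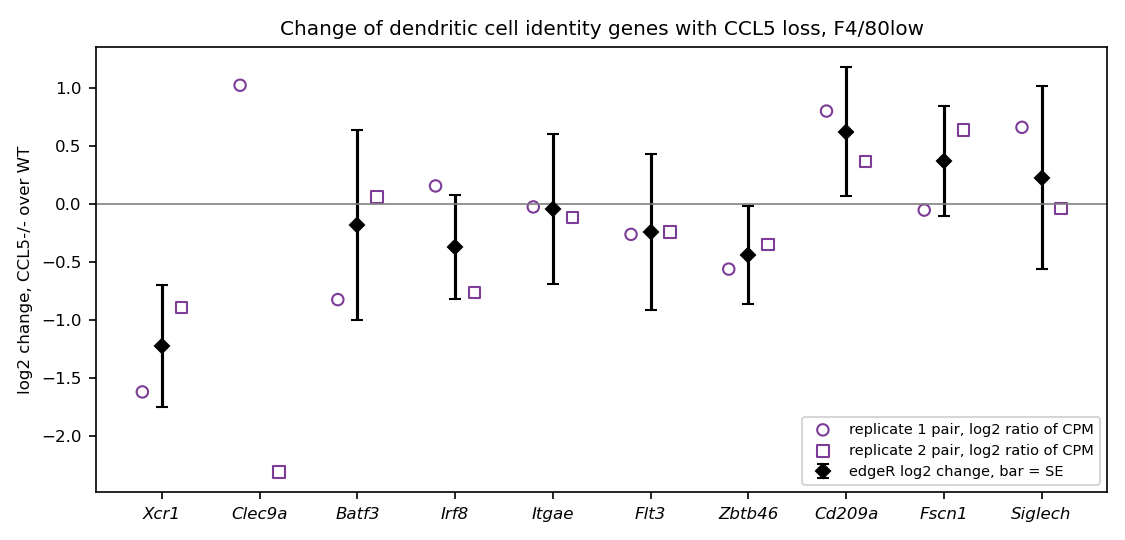
The log2 change of each gene in CCL5-/- over WT F4/80low libraries, as the edgeR estimate with its standard error (black; none for Clec9a, which did not pass the filter) and as the plain log2 ratio of CPM in pair 1 (circles) and pair 2 (squares). Xcr1 is below 0 in both pairs and Cd209a above 0 in both, while Clec9a, Batf3, Irf8, Fscn1 and Siglech have pairs on opposite sides of 0.

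A ratio of reads within a library does not depend on how libraries are scaled. The reads of each gene were therefore set against those of Cd209a, the 1 cDC2 gene of the 10. Such a ratio compares single genes and does not measure the balance of DC subsets. This measure was chosen after the read counts were seen, and all 9 ratios share the Cd209a reads. Of the tested identity genes Xcr1 had the lowest log2 change (-1.23) and Cd209a the highest (0.62). Their ratio thus sets the extremes against each other. For Xcr1 the libraries held 0.333 and 0.750 reads per Cd209a read in CCL5-/- replicates 1 and 2, against 1.79 and 1.80 in WT. Both CCL5-/- libraries were lower than both WT libraries. The 2 WT ratios were close to each other, but that of WT replicate 1 rests on 25 Xcr1 and 14 Cd209a reads, too few to show agreement. The ratio of these ratios, CCL5-/- over WT, was 0.187 (exact 95% interval 0.0666 to 0.515) in pair 1 and 0.417 (0.250 to 0.696) in pair 2. Of the 9 genes, 4 had lower ratios in both CCL5-/- libraries than in either WT library (Xcr1, Itgae, Flt3 and Zbtb46) and 5 overlapped. That is near the share over all genes, since 37.3% of the 12709 other tested genes were also lower per Cd209a read in both CCL5-/- libraries and 0.299% were higher, Cd209a itself being higher there. Zbtb46 had 1.06 and 2.43 reads per Cd209a read in CCL5-/-, against 2.71 and 3.98 in WT, with ratios of 0.389 (interval 0.167 to 0.886) and 0.609 (0.399 to 0.929) in pairs 1 and 2. For Itgae and Flt3 both intervals included 1. Clec9a had 0.167 and 0.132 reads per Cd209a read in CCL5-/- and 0.143 and 0.847 in WT, where WT replicate 2 alone stood apart. With Zbtb46 as the divisor, Xcr1 had 0.316 and 0.309 reads per Zbtb46 read in CCL5-/-, against 0.658 and 0.451 in WT, and Cd209a had 0.947 and 0.412, against 0.368 and 0.251. Neither overlapped between CCL5-/- and WT. Per Zbtb46 read 1.26% of all other tested genes were lower in both CCL5-/- libraries, as Xcr1 was. Higher in both were 36.5%, as Cd209a was. Zbtb46 itself was lower in both CCL5-/- libraries, which by itself makes a lower ratio rarer and a higher ratio more frequent. Of the identity genes only Xcr1 and Cd209a were compared in this way.

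**Figure D3:**
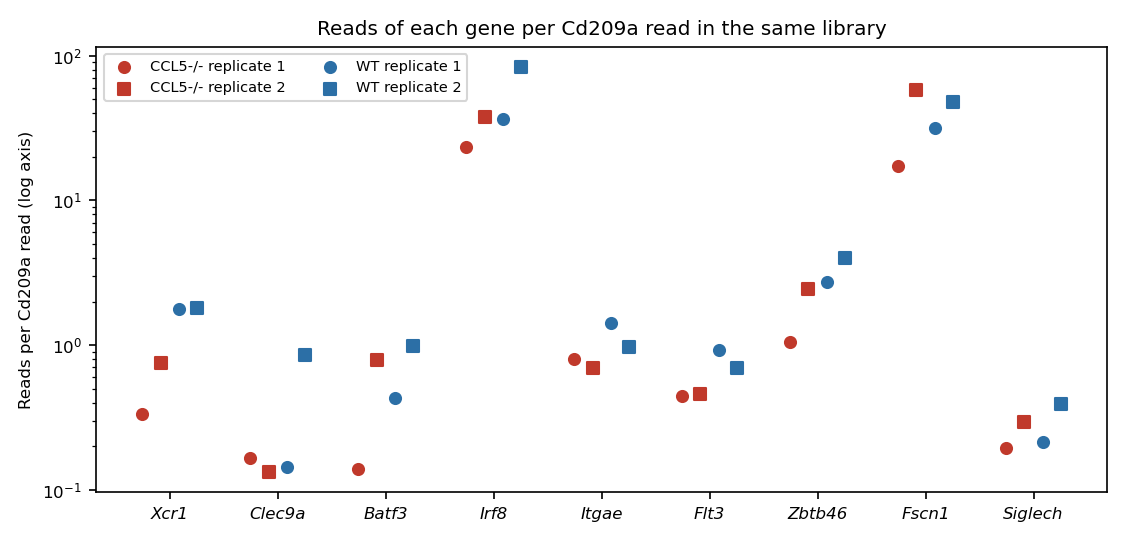
Reads of each gene per Cd209a read in the same F4/80low library, on a log axis (red CCL5-/-, blue WT; circles replicate 1, squares replicate 2). For Xcr1 the WT libraries sit at 1.79 and 1.80 and the CCL5-/- libraries below, at 0.333 and 0.750.

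Wider DC lists were read for whether the rest of each programme went with these genes. They hold 104 distinct genes, of which 92 were tested, and 0 of the 92 passed in edgeR, with 0 at an unadjusted p under 0.05. Of the 92, 71 had a log2 change below 0 and 21 above, with a median of -0.25, beside 6592 of 12710 genes below 0 and a median of -0.013 over all genes tested. Lists of other cells also lay below 0 (0 genes of them passed in edgeR without the replicate number as a term, and 2 neutrophil markers had an unadjusted p under 0.05). Of the tested markers, 10 of 10 were lower for monocytes (median -0.56), 10 of 13 for macrophages (-0.21), 9 of 9 for neutrophils (-2.22) and 5 of 7 for natural killer cells (-0.71). Lower too were 7 of 10 for T cells (-0.24), 9 of 11 for fibroblasts and endothelium (-0.31) and 2 of 2 for B and plasma cells (-1.20), whereas 1 of 5 was lower for epithelium and tumour (0.58). In pairs 1 and 2 the medians had opposite signs for macrophages (0.21 and -0.48), T cells (0.28 and -0.78), natural killer cells (0.90 and -1.34), B and plasma cells (1.09 and -1.52), fibroblasts and endothelium (-0.37 and 0.15) and epithelium and tumour (-0.43 and 1.29). They were below 0 in both pairs for monocytes (-0.51 and -0.22) and neutrophils (-2.69 and -0.89). Summed monocyte markers, all 10 detected, were at 2858 and 1485 CPM in CCL5-/- replicates 1 and 2, against 3713 and 1506 CPM in WT. The part of these cells in the DC list values was not tested. The cDC1 list had a median of -0.048 over 17 tested genes, with 0.053 in pair 1 and -0.34 in pair 2. The cDC2 list had 0.031 over 12 genes, with 0.17 and -0.12 in the pairs. The list shared by conventional DCs had -0.27 over 14 genes (-0.17 and -0.72), the mature list -0.28 over 20 (-0.24 and -0.30), the pDC list -0.39 over 18 (-0.26 and -0.51) and the transcription factor list -0.20 over 22 (-0.21 and -0.37). The mature, pDC, shared and factor lists were thus below 0 in both pairs, and the cDC1 and cDC2 lists in 1 pair. Over all genes tested the pair medians were 0.0060 and -0.024.

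Among the genes with the smallest p of each list, none of which passed, most were lower in CCL5-/-. Choosing by p favours genes whose groups do not overlap, beside 8.24% of all genes that were lower without overlap. Ltb, which encodes lymphotoxin beta, had 9.53 and 16.3 CPM in CCL5-/- replicates 1 and 2, against 19.9 and 35.1 CPM in WT (log2 change -1.09, SE 0.48). Itgax, which encodes the integrin chain CD11c, had 19.4 and 10.1 CPM, against 32.6 and 20.9 CPM (-0.86, SE 0.48). For both genes each CCL5-/- library was below each WT library. The interleukin 12 subunit gene Il12b had 5.11 and 7.23 CPM in CCL5-/-, against 9.10 and 11.9 CPM in WT (-0.76, SE 0.42), Samsn1 had 48.9 and 23.6 CPM, against 73.4 and 65.8 CPM (-0.94, SE 0.47), and the cytokine signalling inhibitor gene Socs2 had 6.04 and 4.88 CPM, against 8.93 and 8.45 CPM (-0.67, SE 0.40). Each of the 3 had its CCL5-/- libraries below its WT libraries. The log2 changes of Cd7, Cd300a, Dpp4 and Adam23 were -1.32, -0.62, -0.64 and -1.01. Cd7 and Adam23 had opposite signs in the pairs. WT replicate 2 alone was high for Cd7, at 3.78 CPM, and WT replicate 1 for Adam23, at 4.81 CPM. Ifi205 had -0.97, with WT replicate 2 at 78.4 CPM and the other libraries at 16.5 to 24.97 CPM. In the other direction Plet1 had 0.40 (SE 0.36) and Sept3 had 0.71 (SE 0.63). These genes are not confined to DCs, and the part of macrophages, lymphocytes and other cells in their values was not tested.

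Of the pDC genes, the gut-homing receptor gene Ccr9 had 11 and 14 reads in CCL5-/-, against 11 and 55 in WT (log2 change -1.10, SE 0.75). The interferon regulator Irf7 was at 121 and 120 CPM in CCL5-/- and at 153 and 201 CPM in WT (-0.56, SE 0.39). Ly6c2, which monocytes also express, had -0.64. Tcf4, the factor that directs the pDC fate, was at 55.2 and 60.0 CPM in CCL5-/-, against 73.2 and 79.3 CPM in WT (-0.40, SE 0.35), and did not overlap between the groups. Spi1, which encodes PU.1, was at 87.1 and 113 CPM in CCL5-/- and at 136 and 151 CPM in WT (-0.52, SE 0.38). Batf had -0.94, with WT replicate 2 at 20.6 CPM and the other libraries at 7.71 to 9.45 CPM. PU.1 and IRF7 are also made by macrophages, whose 13 markers were all detected and summed to 2095 and 2306 CPM in CCL5-/- and to 1943 and 3297 CPM in WT, and their part in these values was not tested.

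The ligands that feed and recruit DCs were read in the same libraries. Flt3l was at 4.18 and 4.70 CPM in CCL5-/-, against 3.09 and 4.54 CPM in WT (log2 change 0.21, SE 0.47). Csf2, which encodes the growth factor GM-CSF, was at 23.9 and 44.9 CPM in CCL5-/- and at 10.5 and 33.8 CPM in WT, higher in CCL5-/- within each pair but overlapping between groups (0.62, SE 0.65). Xcl1, the ligand of XCR1, was at 5.81 and 11.9 CPM in CCL5-/-, against 3.61 and 44.0 CPM in WT (-1.43, SE 1.08). WT replicate 2 was the highest library for Xcl1, and the pairs had opposite signs, which was not so for Xcr1. Natural killer cells, a known source of XCL1, had 7 of 9 markers detected, with Klra8 and Klra4 at 0 in all libraries. Their summed levels were 113 and 107 CPM in CCL5-/- and 63.7 and 285 CPM in WT, with the same libraries at the extremes as for Xcl1, and Ncr1 was at 1.98 and 3.86 CPM in CCL5-/- and at 1.89 and 7.10 CPM in WT. Their part in the Xcl1 values was not tested.

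Markers of further cells were present at levels that differed between libraries. Cd3e of T cells was at 3.84 and 2.53 CPM in CCL5-/- and at 3.09 and 4.01 CPM in WT. S100a8 of neutrophils was at 150 and 80.9 CPM in CCL5-/-, against 973 and 102 CPM in WT, and the 9 neutrophil markers in the table summed to 666 and 308 CPM, against 3517 and 527 CPM. C1qa of macrophages was at 241 and 469 CPM in CCL5-/- and at 214 and 628 CPM in WT. Col1a1 of fibroblasts was at 93.7 and 108 CPM in CCL5-/- and at 105 and 74.8 CPM in WT, Pecam1 of endothelium at 8.72 and 4.77 CPM and at 11.3 and 9.17 CPM, and Krt8 of epithelium at 9.30 and 7.79 CPM and at 8.59 and 3.12 CPM.

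The replicate numbers were then compared, since they split the libraries. With genotype as a term, edgeR called 4047 of 12710 genes (31.8%), 13.9% higher and 18.0% lower in replicate 2. Of the 9 tested identity genes 1 passed. Fscn1 was higher in replicate 2, at 145 and 93.1 CPM in CCL5-/- and WT, against 72.8 and 75.6 CPM in replicate 1 (log2 change 0.65, SE 0.24, adjusted p = 0.0499). It did not pass in DESeq2 (adjusted p = 0.092) or with library totals without Rn45s (edgeR adjusted p = 0.094). Leaving out 1 library at a time, in fits without the genotype term, gave log2 changes of 0.33 to 0.97. For Irf8 the log2 change of 0.42 (SE 0.25) did not pass (adjusted p = 0.23). Without CCL5-/- replicate 2 it was 0.80, in a fit without the genotype term where WT replicate 2 alone stood for replicate 2. Batf3 had the largest log2 change of the 9 tested genes, 1.32 (SE 0.65, adjusted p = 0.14), and Itgae the lowest, -0.92 (SE 0.49, adjusted p = 0.17), and neither passed. Xcr1 had 0.023 (SE 0.48), and its sign turned with library totals without Rn45s (-0.13) and with the genotype term left out (-0.030). Cd209a had -0.55 (SE 0.47) and Flt3 -0.72 (SE 0.58). For Xcr1 neither the genotype nor the replicate number passed. Its libraries did not overlap between genotypes, and in this layout that alone makes them overlap between replicate numbers.

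**Figure D4:**
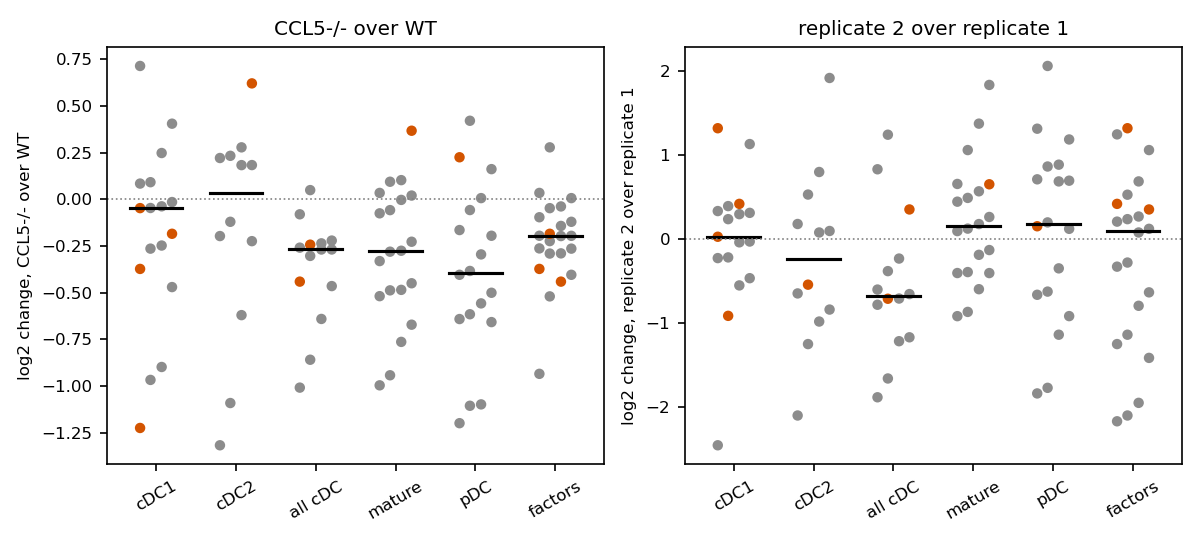
The log2 change of each tested gene of the wider lists in CCL5-/- over WT (left) and in replicate 2 over replicate 1 (right), F4/80low; orange points are identity genes, lines are medians. Medians on the left run from -0.39 (pDC) to 0.031 (cDC2), while on the right the list shared by conventional DCs is lowest at -0.69.

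The libraries labelled F4/80hi have no replicate and no test. The targeted gene goes against their labels, since Ccl5 had 145 FPKM under the label CCL5-/- and 15.7 FPKM under the label WT, and the sample titles also name the opposite genotype. Xcr1 had 1.49 FPKM (authors' bounds 0.0976 to 2.88) under the label CCL5-/- and 0.612 FPKM (0 to 1.32) under the label WT. Cd209a had 3.08 FPKM (0 to 6.24) under the label CCL5-/- and 5.46 FPKM (0.420 to 10.5) under the label WT. The bounds overlapped for all 10 genes, and they did not for Ccl5. On the log2(FPKM + 1) scale, which understates the change of low genes, the differences ran from -0.66 for Cd209a to 0.63 for Xcr1. Of the 10 genes 6 reached 1 FPKM in either library, and 0 of these were 2-fold apart with the pseudocount of 1 (the plain ratio of Xcr1 was 2.43), beside 458 of 11670 genes (3.92%). Clec9a was at 0.387 and 0.193 FPKM in the libraries labelled CCL5-/- and WT, and Siglech at 0.246 and 0.533 FPKM. Since these libraries match those of pair 1, their values are not counted as a second observation. Set against WT replicate 1 over CCL5-/- replicate 1, the FPKM ratio lay on the same side of 1 for 8 of the 10 genes, and on the other side for Clec9a (2.01 against 0.493) and Fscn1 (0.986 against 1.04). By the titles each sign would turn, and Xcr1 would then be lower and Cd209a higher in CCL5-/-.

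**Figure D5:**
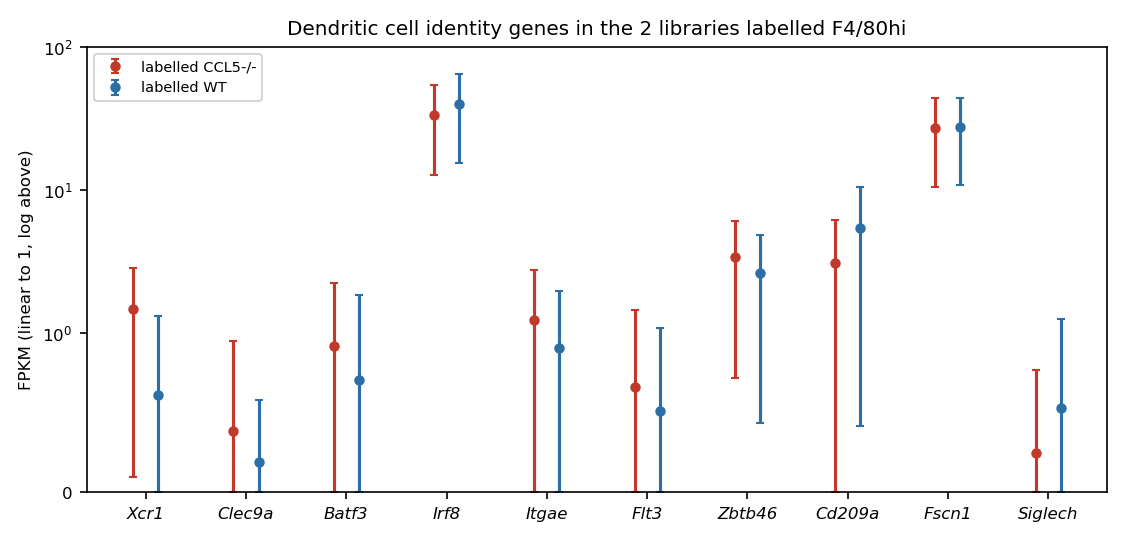
FPKM of the 10 genes in the libraries labelled F4/80hi CCL5-/- (red) and F4/80hi WT (blue), on an axis that is linear to 1 and logarithmic above. Bars are the authors' lower and upper bounds, which overlap between the libraries for all 10 genes.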

How the data were processed

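The identity genes and all lists were chosen with earlier results of these data known. Per the submitters' processing notes, the tools were Cufflinks 2.2.1, TopHat2 2.1.1, STAR, HTSeq, bcl2fastq 2.17.1.14, cutadapt, DESeq2 and FastQC, and the sources used here do not tie them to tables. The authors deposited whole-number read counts per gene for F4/80low. A deposited table of their comparison holds a normalised signal (counts divided by size factors), a log2 fold change, a score (test statistic) and p-values. In the authors' deposited table the log2 fold changes of the 10 genes run from -0.40 to 0.21, each with an adjusted p of 1.0. Ccl5 has -1.68 there, against -4.63 in the DESeq2 fit run here, so the sizes of the deposited changes are not comparable with those above. For F4/80hi the authors deposited FPKM with bounds, whose depth is unknown. Loci of 99.03% of 20876 shared symbols overlapped the GRCm38 gene of GENCODE M21.

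From these counts, tests were run in R 4.3.3 by edgeR 4.0.16 (filterByExpr with a minimum count of 10, TMM, robust quasi-likelihood fit, two-sided, Benjamini-Hochberg over 12710 genes, threshold 0.05), and with DESeq2 1.42.0 and limma-voom (limma 3.58.1) as alternatives. The standard error is the size of the log2 change divided by the square root of F. List medians within pairs are of log2 CPM with a prior count of 2. The fits were tested on simulated counts that kept the split by replicate number. Changes between CCL5-/- and WT were placed only in genes with high mean counts, so the result does not cover identity genes with few reads. There the CCL5-/- against WT fit without the replicate number called none of the genes given a known change, whereas the fit with it called most. Apart from the known changes, the simulation gave both genotypes the same mean within a replicate number. Its spread was estimated with the replicate number as a term. Such a setting favours the fit with the replicate number, so the result does not choose between the fits. For the replicate numbers no change was added. The known change was the split observed in these data, and that fit called most of the genes with it. Promoter motifs were counted on both strands, and both IRF motifs were shortened by 1 base after a first search with longer forms, whose counts are not given. F4/80hi changes are log2 ratios with a pseudocount of 1 over genes of at least 1 FPKM in either library.

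Named are the 10 genes, Ccl5, Rn45s, Adgre1 and Itgam, the 3 further genes of smallest p in each of 6 DC lists, Flt3l, Csf2 and Xcl1, and Cd3e, Ncr1, S100a8, C1qa, Col1a1, Pecam1 and Krt8. Others, among them the DC genes compared between replicate numbers in the closing section, were chosen after their values were seen. An item the rule also names is not reported here. The replicate numbers come from the sample titles, and the labels do not say that they pair the libraries.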

Additional observations from a re-analysis of the deposited data

How the results depend on the processing

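There were 2 libraries per group and as few as 2 reads for an identity gene. In CCL5-/- against WT, 0 genes passed in the fit without a replicate block, 10 passed with the replicate block, 1 in DESeq2, 23 in DESeq2 with the replicate block (added after seeing the data) and 0 to 4 when 1 library was left out. No identity gene passed in CCL5-/- against WT under any of these or the other alternatives run. With the replicate block, which changed no call of an identity gene, Xcr1 had a log2 change of -1.19 (edgeR adjusted p = 0.75, unadjusted p = 0.026, as 5.86% of genes had one under 0.05). With the block, 0 of the 92 tested genes of the DC lists passed, and 13 had an unadjusted p under 0.05, all lower, beside 510 lower and 235 higher of 12710 genes. The 10 genes called with it include 1 neutrophil marker and 1 fibroblast and endothelial marker. The targeted gene Ccl5 is not among them (log2 change -4.58, edgeR adjusted p = 0.0985). Same-numbered libraries deviated together (correlation 0.73), but with 2 pairs the numbers are not shown to pair the samples. The sign of 5 genes turned when 1 library was left out, with ranges of -1.37 to 0.43 for Batf3, -0.73 to 0.13 for Irf8, -0.59 to 0.14 for Flt3, -0.54 to 0.43 for Itgae and -0.22 to 0.82 for Fscn1. Itgae also turned, to 0.062, with library totals without Rn45s, a scaling that put the median of all genes at 0.088 in place of -0.013.

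In replicate 2 against replicate 1, leaving out 1 library gave 2067 to 3215 calls in place of 4047. Library totals without Rn45s put the median of all genes at -0.16 in place of 0.00361, and 1476 of 4637 calls were then higher in replicate 2, in place of 1763 of 4047. The 1 identity gene called in the main fit, Fscn1, became 0 in DESeq2 and 0 with library totals without Rn45s. When 1 library was left out, the log2 change was 0.33 to 0.97 for Fscn1 and 0.033 to 0.80 for Irf8. Signs turned for Xcr1 (-0.030 with the genotype term left out, -0.13 with library totals without Rn45s, and -0.64 to 0.96 when 1 library was left out) and for Siglech (-0.013 with those totals, and -0.10 to 0.57). In F4/80hi a pseudocount of 0.1 put 1 identity gene, Xcr1, past 2-fold in place of 0. The cause was not tested for any of these.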

Other observations

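Replicate 2 was also compared with replicate 1 for the DC lists. Of the 92 genes tested, 11 were called higher and 18 lower in replicate 2, shares near the 13.9% and 18.0% of all genes tested. The genes given here were chosen after their values were seen. Of the mature list 3 genes were called higher (Cd40, Relb and Fscn1) and 1 lower (Cd274). Cd40, the receptor for T cell help, had a log2 change of 1.83 (SE 0.36, edgeR adjusted p = 0.0062), the NF-kB subunit gene Relb 1.06 (SE 0.23, adjusted p = 0.0028) and the checkpoint ligand gene Cd274 -0.92 (SE 0.31, adjusted p = 0.045). Of the 22 tested factors 2 were called higher, Relb and Batf2 (1.24, SE 0.33, adjusted p = 0.011), and 7 lower. Among the 7 were Notch2 at -2.11 (SE 0.23, adjusted p = 1.63e-05), Zeb2 at -2.17 (SE 0.24) and the cDC2 factor gene Irf4 at -1.25 (SE 0.25, adjusted p = 0.0018). Wdfy4, needed for cross-presentation by cDC1, had -2.46 (SE 0.22, adjusted p = 3.42e-06), at 10.5 and 11.6 CPM in replicate 2 of CCL5-/- and WT, against 59.9 and 61.3 CPM in replicate 1. Of the cDC1 genes Wdfy4, Batf3 and Xcr1, the last 2 did not pass. Most of these genes are also expressed by other leukocytes, and the ribosomal RNA share, CD11b gene level and replicate number cannot be told apart in these libraries.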
